A study of Mus musculus with 6 samples.

Results

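The genes described here are 42 genes of the carriers that move newly made proteins between the endoplasmic reticulum (ER) and the Golgi apparatus, found by gene symbol among the 24346 rows of the deposited table. They comprise 14 genes of the COPII coat and its assembly, 8 genes of the p24 (Tmed) family, 10 genes of the COPI coat and its small GTPases, and 10 cargo receptors and fusion proteins (SNAREs). All 42 had an entry, and all 42 passed the filter on low values.

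The 6 liver samples came from male C57BL/6 mice (C57BL/6J in the study's methods), 3 of them control and 3 lipophagy-induced. The mice were 8 weeks old when they were put on a choline-deficient high-fat diet (CDAHFD), which produces steatohepatitis, and after 6 weeks they received 1 injection of AAV8 and went back to normal chow for 2 weeks. In both groups the virus carried the lipid droplet-targeting sequence (LDTS) of perilipin 1 under the liver-specific thyroxine-binding globulin promoter (pTBG), fused in lipophagy mice to an engineered LC3-interacting region (LDTS-eLIR) that draws autophagosomes to lipid droplets, and in control mice to a mutated region without that affinity (LDTS-LIR mut). The targeting sequence, which both groups carry, was itself found by the study to raise lipid in cells and liver. No liver without a vector and no liver of a mouse kept off CDAHFD was analysed here, so the values compare 2 forms of one vector in livers recovering from the same diet.

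Proteins leave the ER in vesicles coated with COPII. The GTPase Sar1 is loaded with GTP by Preb (Sec12), recruits the inner coat of Sec23 and Sec24, of which Sec24 selects cargo, and the outer coat of Sec13 and Sec31 closes over it at sites organised by Sec16 and Tfg. COPI coats, assembled on Arf GTPases, return receptors and escaped ER proteins from the Golgi, and p24 proteins travel in both coats as cargo adaptors. In hepatocytes this route carries albumin, clotting factors and the other plasma proteins, and larger carriers of the same machinery carry lipoproteins.

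Values are FPKM, that is fragments scaled to transcript length and to the number of mapped fragments in the liver. They summed to between 622696 and 681138 in control livers and between 709993 and 782392 in lipophagy livers. The steps between low values gave an estimated depth of 22800000 to 33800000 fragments per liver, highest in control liver 3. Spearman correlations between livers across genes lay between 0.979 and 0.982, and no 2 livers had the same values. The 15 hepatocyte markers searched were all present, at a summed 86077 to 95290 FPKM in control livers and 100909 to 129455 FPKM in lipophagy livers.

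Most of the transport genes had higher levels in lipophagy livers. Of the 42 genes, 36 had a higher mean log2 level (29 after quantile normalization, where 52% of all tested genes did) and 6 a lower one, with a median log2 change of 0.21 against 0.020 over all 11493 genes tested, of which 54.5% were higher. By limma on log2(FPKM + 1), 21 genes were higher with an unadjusted p below 0.05, or 50.0% of the members, where 11.5% of all tested genes were. A further 2 genes, Sec24b and Kdelr3, were lower by the same measure, where 7.97% of tested genes were. In 25 genes the 3 lipophagy livers all lay above the 3 control livers (15.4% of tested genes), and in 2 genes they all lay below (10.8%). After Benjamini-Hochberg adjustment over all tested genes, limma called 0 of the 42 at a threshold of 0.05, with a lowest adjusted p of 0.124 and 23 of 42 genes at an unadjusted p below 0.05, where 0.0261% of tested genes were called. The members are well expressed, with a median of 33.2 FPKM over the livers against 5.82 FPKM over all tested genes. A comparison with the 4267 tested genes that averaged 10 FPKM or more, a limit chosen after the data were seen, is therefore given as well. Of those, 78% had a higher mean, 23.6% were higher with an unadjusted p below 0.05, 30% had lipophagy livers all above control livers, and the median log2 change was 0.13. Of the 37 members above that limit, 21 (56.8%) were higher with an unadjusted p below 0.05, and their median log2 change was 0.25.

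The count of 21 was 11 when the livers were quantile-normalized, where 6.48% of all tested genes were higher by that measure, and 13 without lipophagy liver 1, where 6.95% were. The count of 2 lower members was 2 and 1 in these settings, against 7.82% and 5.76% of all tested genes. Under quantile normalization, 12 members had lipophagy livers all above control livers and 1 had them all below, against 10.2% of all tested genes in each direction. Lipophagy liver 1 had the highest FPKM of the 6 livers in 30 of the 42 genes, against 28.5% of all tested genes, and control liver 1 had the lowest in 27 of the 42, against 24.3%. Averaged over the 42 genes, the log2 deviation from a gene's control mean was 0.32 for lipophagy liver 1, 0.12 for lipophagy liver 2 and 0.24 for lipophagy liver 3, against -0.059, 0.040 and 0.019 for the controls in the same order. Of the 15 hepatocyte markers, 13 (86.7%) had a higher mean in lipophagy livers, with a median log2 change of 0.22. Of all tested genes of at least 10 FPKM, 78% had a higher mean and the median was 0.13, so the count lies near that background. The part of hepatocytes in the levels of the transport genes was not tested. In whole liver, more hepatocytes and more RNA per hepatocyte cannot be told apart.

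**Figure D1:**
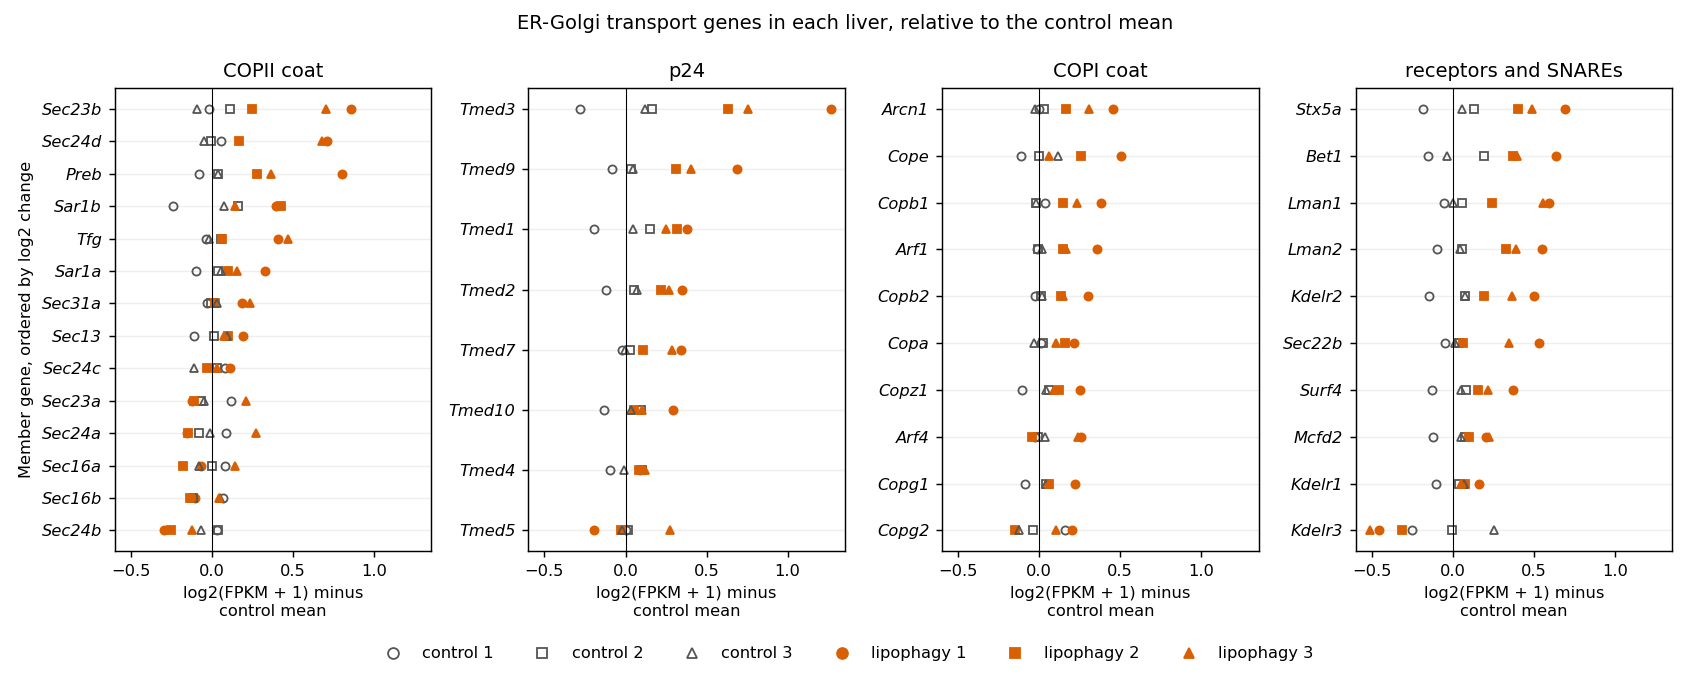
Level of each of the 42 genes in each liver, as log2(FPKM + 1) minus the mean of the 3 control livers of that gene, in 4 panels by role. Open grey symbols are control livers, filled orange symbols are lipophagy livers, and the symbol shape gives the liver number within its group. The orange symbols lie to the right of the grey ones in 25 genes and to their left in Sec24b and Kdelr3, with lipophagy liver 1 often the farthest to the right.

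**Figure D2:**
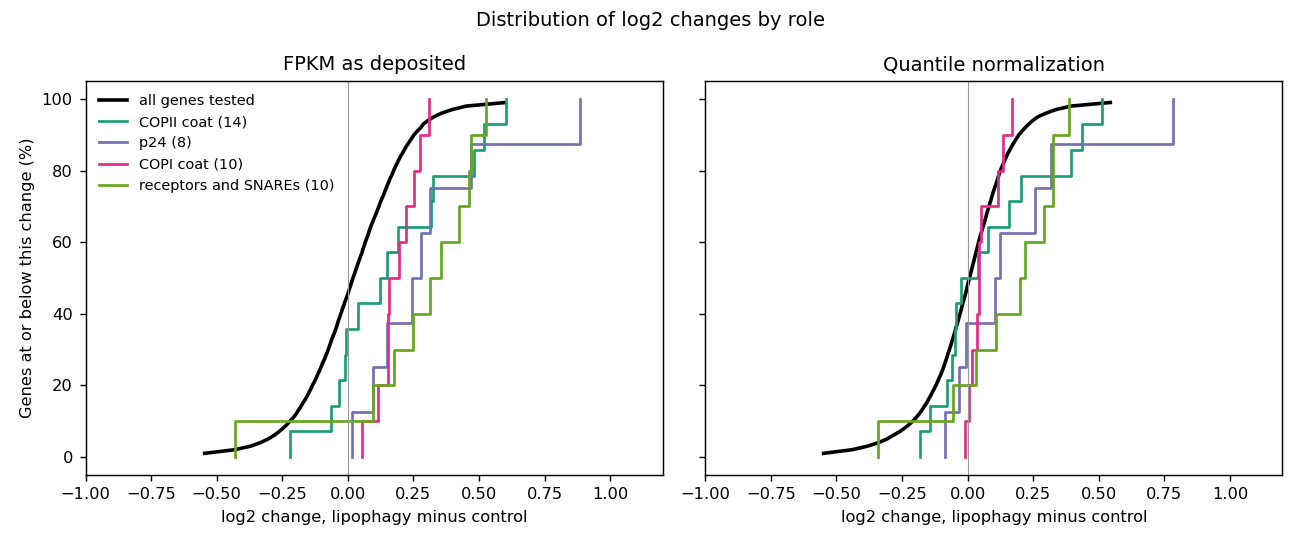
Cumulative share of genes (%) against the log2 change, lipophagy minus control, for all 11493 tested genes (black) and for each role (colours, number of genes in brackets), with the FPKM as deposited on the left and after quantile normalization on the right. The median was 0.14 for the COPII coat, 0.26 for p24, 0.18 for the COPI coat and 0.33 for receptors and SNAREs as deposited, and 0.0069, 0.11, 0.043 and 0.21 after quantile normalization.

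The sequence before the start site was searched for elements known from genes of the unfolded protein response. The search followed the observation that most members and most genes on a list of regulators and ER chaperones had higher means. Whether these genes moved jointly was not tested. RefSeq promoters (GRCm38) were matched for 37 of the 42 genes by symbol, and the 250 bases before each start were read on both strands. The core of the unfolded protein response element (UPRE), TGACGTGG, was found in 5 of the 37 genes (13.5%), where 163 of 27025 genes with a promoter held it (0.603%) and 72 of 8819 tested genes did (0.816%). It shares the letters CCACG, in reverse complement, with the ER stress elements ERSE (CCAAT and CCACG, 9 bases apart) and ERSE-II (ATTGG and CCACG, 1 base apart), which were found in 0 of the 37 genes and in 0.130% and 0.0370% of all genes. The cyclic AMP response element TGACGTCA, which overlaps the UPRE core in its first letters, was found in 1 of the 37 genes, Cope, and in 1.77% of all genes. The 5 matches are shown with 11 bases on each side because they fall in genes that went in different directions, with the UPRE core in capitals and each sequence written 5′ to 3′ on the strand of its gene, so that a match in reverse complement reads CCACGTCA.
Sec24d: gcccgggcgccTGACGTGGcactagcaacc
Sec16b: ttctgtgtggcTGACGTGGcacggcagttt
Arf1: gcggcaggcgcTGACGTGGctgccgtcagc
Copb1: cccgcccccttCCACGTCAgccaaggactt
Kdelr3: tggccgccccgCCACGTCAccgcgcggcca

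These windows lie at chr3:123267459-123267488 on the plus strand (Sec24d), chr1:157506741-157506770 on the plus strand (Sec16b), chr11:59228228-59228257 on the minus strand (Arf1), chr7:114254690-114254719 on the minus strand (Copb1) and chr15:79516367-79516396 on the plus strand (Kdelr3) of GRCm38. The match ended 18 bases before the RefSeq start in Sec24d, 36 in Sec16b, 76 in Arf1, 20 in Copb1 and 22 in Kdelr3. By GENCODE M21, whose start sites differ, the matches of Sec24d, Sec16b, Arf1 and Copb1 fall in the first exon of 1 transcript each, and that of Kdelr3 falls in no exon. Of the 5 genes, Sec24d, Arf1 and Copb1 had lipophagy livers above control livers, Kdelr3 had them below, and those of Sec16b overlapped. Over the 72 tested genes with the element, the 5 members among them, the median log2 change was 0.12. Of the 72, 16 were higher and 4 lower at an unadjusted p below 0.05. All tested genes had a median of 0.020 and shares of 11.5% and 7.97%. Those of at least 10 FPKM had a median of 0.13, with 23.6% higher. A link between the element and the level was not tested. For the elements that these members lack or hold once, the 15 tested genes with ERSE had a median of 0.33, with 8 higher and 0 lower, the 6 with ERSE-II a median of 0.12, with 1 higher and 0 lower, and the 268 with the cyclic AMP response element a median of 0.028, with 17 higher and 15 lower. A match is a run of letters, and binding was not measured here.

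In the COPII coat, the higher levels were in some paralogs and not in others. Sec23b, an inner coat subunit, was at 12.3, 13.5 and 11.6 FPKM in control livers 1, 2 and 3 and at 23.4, 15.0 and 20.9 FPKM in lipophagy livers 1, 2 and 3. There was no overlap between groups, and lipophagy liver 2 stood closest to the controls. Its log2 change was 0.60 (standard error, SE, 0.15, limma adjusted p = 0.139). Sec23a, the paralog with the same place in the coat, was at 14.3 ± 1.10 FPKM (SD, n = 3) in control livers and 14.3 ± 2.07 FPKM (SD, n = 3) in lipophagy livers, with overlapping groups.

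Sec24d, a cargo-selecting inner subunit, was at 13.6, 12.97 and 12.5 FPKM in control livers and 21.9, 14.8 and 21.5 FPKM in lipophagy livers. Its lipophagy livers all lay above its control livers, and the log2 change was 0.52 (SE 0.14, limma adjusted p = 0.153). Sec24b was at 3.27, 3.29 and 2.99 FPKM in control livers and 2.40, 2.52 and 2.85 FPKM in lipophagy livers. It is the one coat gene whose lipophagy livers all lay below the controls, by a log2 change of -0.22 (SE 0.083, limma adjusted p = 0.217). Sec24a (7.90 ± 0.512 and 7.92 ± 1.56 FPKM, SD, n = 3 each) and Sec24c (17.7 ± 1.28 and 18.1 ± 0.979 FPKM, SD, n = 3 each) had overlapping groups.

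Upstream of the coat, Preb, the exchange factor that loads Sar1 with GTP, was at 13.8, 15.0 and 15.0 FPKM in control livers and 26.1, 17.9 and 19.1 FPKM in lipophagy livers. The group ranges stood apart, and lipophagy liver 1 stood above the other two, with a log2 change of 0.48 (SE 0.14, limma adjusted p = 0.157). Tfg, which organises ER exit sites, was at 24.2, 25.8 and 24.5 FPKM in control livers and 33.3, 26.0 and 34.8 FPKM in lipophagy livers. Lipophagy liver 2 lay just above control liver 2, and the log2 change was 0.32 (SE 0.11, limma adjusted p = 0.207). Sar1b, the Sar1 form known for lipoprotein export, was at 99.4, 132 and 124 FPKM in control livers and 155, 158 and 130 FPKM in lipophagy livers. Its groups overlapped through control liver 2 and lipophagy liver 3 although its unadjusted p was below 0.05, and its adjusted p was 0.233 (limma).

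The other COPII genes did not pass even before adjustment. Sar1a was at 29.5 ± 1.74 FPKM in control and 34.0 ± 2.92 FPKM in lipophagy livers (SD, n = 3) without overlap. The outer coat subunits Sec13 (64.6 ± 4.60 and 70.5 ± 3.12 FPKM) and Sec31a (22.3 ± 0.519 and 24.8 ± 1.96 FPKM) had overlapping groups, as did the scaffolds Sec16a (7.25 ± 0.449 and 7.08 ± 0.917 FPKM) and Sec16b (15.9 ± 1.15 and 15.2 ± 1.11 FPKM). An antisense gene, Gm15486, overlaps Sec16b, and the use of strand in counting is not given in the sources used here. Over the 14 COPII genes the median log2 change was 0.14, with 5 higher and 1 lower at an unadjusted p below 0.05, against 11.5% and 7.97% of all tested genes (23.6% higher among those of at least 10 FPKM), so the lower count lies near the background. The median was 0.0069 after quantile normalization, close to the 0.0074 of all tested genes under that scaling. Sec13 and Sec24c, which had higher means as deposited, were at -0.025 and -0.047 after quantile normalization, whereas Sec23b, Sec24d, Preb and Tfg were at 0.51, 0.44, 0.40 and 0.20, Sar1b at 0.16 and Sar1a at 0.076.

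Because FPKM is per length, paralogs can be set side by side within a liver, and a share within a family is free of the liver's scaling factor. Sec23b made up 44.0%, 49.9% and 45.7% of the summed Sec23 FPKM in control livers and 64.1%, 53.2% and 55.6% in lipophagy livers. Sec24d made up 30.8%, 31.1% and 31.7% of the 4 Sec24 genes in control livers and 43.4%, 35.6% and 41.2% in lipophagy livers. For both, every lipophagy liver lay above every control liver. Sec24b went the other way, from 7.43%, 7.89% and 7.55% to 4.75%, 6.06% and 5.47%. The shares of Sec24a (18.9% ± 1.01 and 16.5% ± 2.44, SD, n = 3) and Sec24c (42.3% ± 1.13 and 38.0% ± 3.40, SD, n = 3) overlapped between groups. In control livers the most abundant Sec24 gene was Sec24c in each liver, and in lipophagy livers Sec24d was above Sec24c in livers 1 and 3 and below it in liver 2.

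Among the KDEL receptors, the share of Kdelr2 was 42.2% ± 0.640 in control and 47.0% ± 2.18 in lipophagy livers (SD, n = 3), and that of Kdelr1 was 56.7% ± 0.774 and 52.6% ± 2.08. The shares of Sar1b (79.9% ± 1.51 and 81.3% ± 1.86) and of Copg2 (23.1% ± 3.01 and 22.3% ± 1.84) overlapped between groups. Of the 10 shares tested, Sec23b, Sec24b, Sec24d, Kdelr1, Kdelr2 and Kdelr3 had p = 0.1 by a two-sided exact permutation test, the smallest p that 3 livers against 3 allow, and an adjusted p of 0.167 over the 10. A p below 0.05 was therefore out of reach. The handling of reads that match more than 1 paralog is not given in the sources used here, and such reads could move a share.

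**Figure D3:**
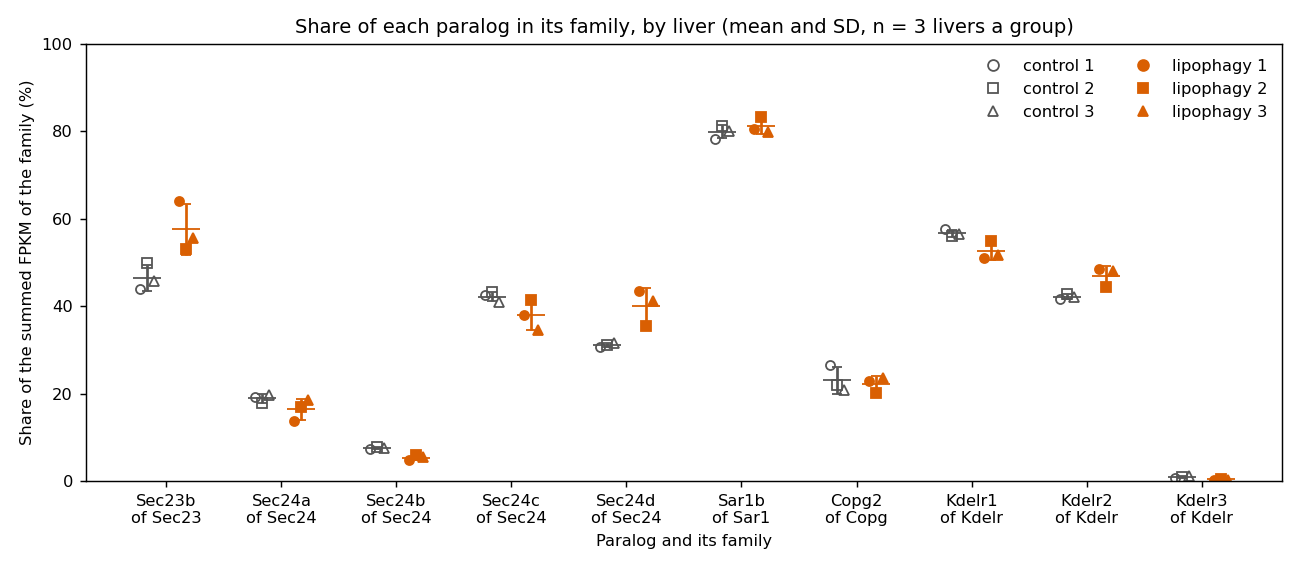
Share (%) of each paralog in the summed FPKM of its family, for Sec23, Sec24, Sar1, Copg and Kdelr, with control livers in open grey and lipophagy livers in filled orange symbols, and mean and SD as bars (n = 3). Sec23b and Sec24d sit higher in every lipophagy liver (57.6% against 46.5% and 40.1% against 31.2% on average), while Sar1b and Copg2 overlap.

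All 8 p24 genes had a higher mean in lipophagy livers, although Tmed4, Tmed5 and Tmed10 were at -0.034, -0.085 and -0.0051 on the log2 scale after quantile normalization. The p24 proteins form mixed complexes of an alpha, a beta, a gamma and a delta member that sort cargo such as GPI-anchored proteins. Tmed3, a gamma member, had the largest log2 change of the 42 genes, at 14.5, 20.1 and 19.5 FPKM in control livers and 44.3, 28.2 and 30.9 FPKM in lipophagy livers. The lowest lipophagy liver was above the highest control liver, the ratio of the group means was 1.91, and the log2 change was 0.88 (SE 0.18, limma adjusted p = 0.124). It had the rank 112 among all tested genes by p. In control livers Tmed3 was the second lowest of the family, below Tmed5 in every liver, and in lipophagy livers it was above Tmed5 in every liver.

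Tmed9, an alpha member, was at 51.3, 55.7 and 56.2 FPKM in control livers and 88.0, 67.7 and 72.3 FPKM in lipophagy livers. The groups stood apart by more than the spread of the controls, with a log2 change of 0.47 (SE 0.11, limma adjusted p = 0.134). Tmed2, the beta member and the most abundant of the family, was at 113, 128 and 129 FPKM in control livers and 157, 144 and 149 FPKM in lipophagy livers, without overlap (log2 change 0.28, limma adjusted p = 0.176). Tmed10, the delta member, was at 39.1, 45.9 and 44.0 FPKM in control livers and 52.9, 44.6 and 46.2 FPKM in lipophagy livers, with overlap. The remaining genes belong to the gamma and alpha groups. Tmed1, a gamma member, was at 8.43, 10.96 and 10.1 FPKM in control livers and 13.03, 12.4 and 11.8 FPKM in lipophagy livers (log2 change 0.31, SE 0.10, limma adjusted p = 0.185). Tmed7, also a gamma member, was at 23.3, 24.1 and 23.5 FPKM in control livers and 30.2, 25.5 and 28.96 FPKM in lipophagy livers (log2 change 0.24, SE 0.084, limma adjusted p = 0.200). Neither gene had overlapping groups. Tmed5, the remaining gamma member, was at 20.8 ± 0.286 and 21.3 ± 3.72 FPKM, and Tmed4, the other alpha member, at 36.6 ± 2.60 and 39.1 ± 0.519 FPKM, both with overlap.

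The summed level of the 8 genes was 305, 345 and 339 FPKM in control livers and 442, 381 and 404 FPKM in lipophagy livers. Their median log2 change was 0.26, and 5 of the 8 were higher with an unadjusted p below 0.05, against 11.5% of all tested genes and 23.6% of those of at least 10 FPKM. After quantile normalization the median was 0.11, with Tmed3 at 0.78, Tmed9 at 0.32, Tmed1 at 0.26, Tmed7 at 0.12 and Tmed2 at 0.10. Of the p24 genes outside the 42, Tmed11 was listed at 0 in all livers, and Tmed6 and Tmed8 were below the filter, with means of 0.0401 and 0.342 FPKM over the 6 livers.

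**Figure D4:**
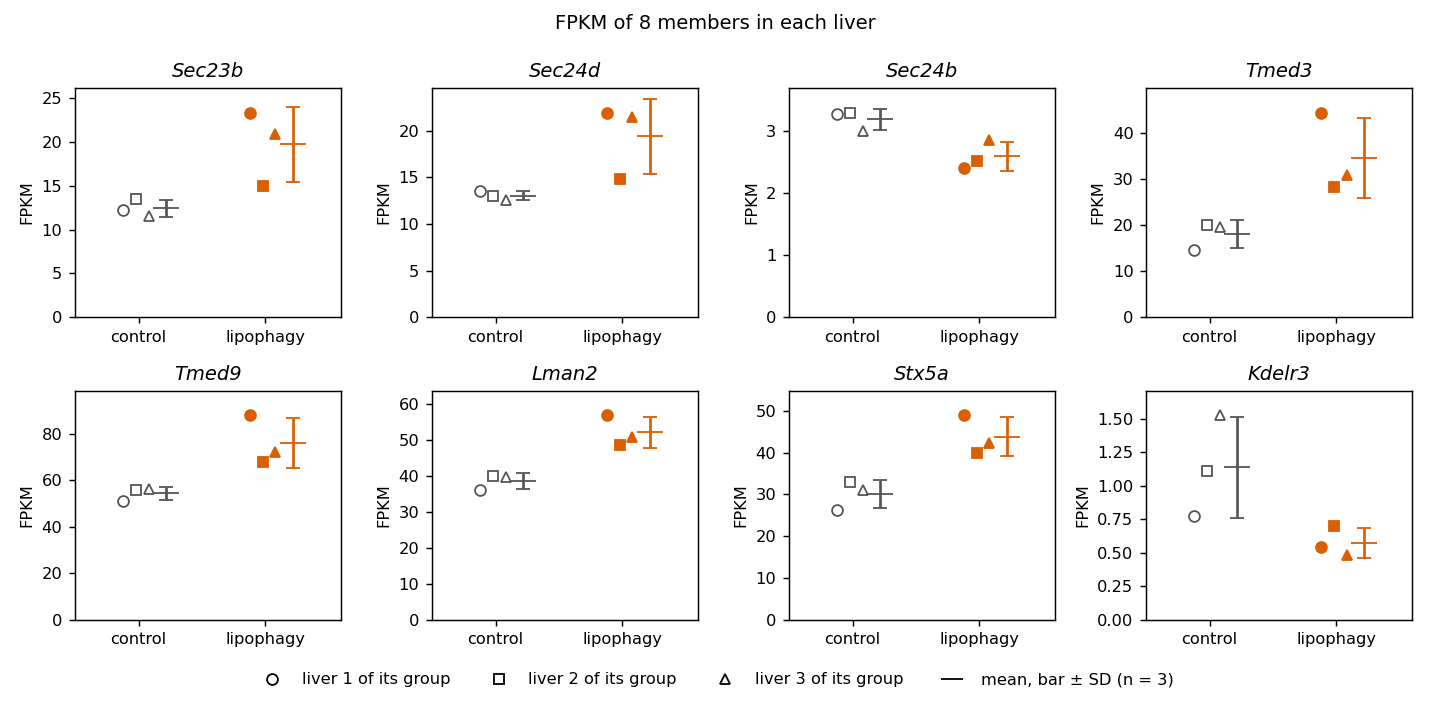
FPKM of 8 genes in each liver, from 0 on each axis, with the mean and SD of each group beside the points (n = 3 livers). Sec23b, Sec24d, Tmed3, Tmed9, Lman2 and Stx5a have every lipophagy liver above every control liver, and Sec24b and Kdelr3 have every lipophagy liver below them.

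In the COPI coat, all 10 genes had a higher mean in lipophagy livers, Copz1 not so after quantile normalization, with log2 changes between 0.052 and 0.31 and a median of 0.18. In 7 of the 10 the lipophagy livers all lay above the controls, and 4 were higher with an unadjusted p below 0.05, against 15.4% and 11.5% of all tested genes. Among tested genes of at least 10 FPKM those shares were 30% and 23.6%, and 78% had a higher mean. After quantile normalization the median was 0.043 and Copz1 was at -0.011. Arcn1, the delta subunit of coatomer, was at 37.1, 37.9 and 36.5 FPKM in control livers and 51.4, 41.8 and 46.3 FPKM in lipophagy livers. The control livers lay close together and the lipophagy livers were spread wider above them, with a log2 change of 0.31 (SE 0.091, limma adjusted p = 0.165).

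Copb1, the beta subunit, was at 27.3, 26.1 and 26.2 FPKM in control livers and 34.8, 29.4 and 31.4 FPKM in lipophagy livers (log2 change 0.25, limma adjusted p = 0.191). Copb2, the beta prime subunit, was at 48.5, 49.9 and 50.1 FPKM in control livers and 61.2, 54.4 and 54.9 FPKM in lipophagy livers (log2 change 0.19, limma adjusted p = 0.240). Arf1, the GTPase on which the coat assembles, was at 126, 126 and 128 FPKM in control livers and 162, 141 and 142 FPKM in lipophagy livers (log2 change 0.22, limma adjusted p = 0.221). In all 3 genes lipophagy liver 1 was the highest and no lipophagy liver reached down to the controls. After quantile normalization Arcn1 was at 0.17, Copb1 at 0.13, Copb2 at 0.050, Arf1 at 0.042 and Copa at 0.034 on the log2 scale, so the size of these changes depends on the scaling.

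Copa, the alpha subunit, was at 32.7 ± 0.721 and 36.6 ± 1.45 FPKM in control and lipophagy livers (SD, n = 3). The zeta subunit Copz1 was at 99.7 ± 6.19 and 111 ± 6.62 FPKM, and the gamma subunit Copg1 at 21.7 ± 1.15 and 23.5 ± 1.63 FPKM. These 3 genes had no overlap but an unadjusted p above 0.05. Cope, the epsilon subunit, was at 116 ± 9.32 and 141 ± 21.9 FPKM, Arf4 at 54.7 ± 1.30 and 61.1 ± 7.11 FPKM, and Copg2, the second gamma form, at 6.49 ± 0.755 and 6.78 ± 0.956 FPKM, all with overlap. Within coatomer, levels per length in control livers were lowest for Copb1, at 26.5 ± 0.632 FPKM, and for the sum of both gamma forms, at 28.1 ± 0.469 FPKM, and highest for Copz1 and Cope.

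Cargo receptors and SNAREs had the largest median of the 4 roles, 0.33, with 7 of 10 genes higher and 1 lower at an unadjusted p below 0.05, against 11.5% and 7.97% of all tested genes (23.6% higher among those of at least 10 FPKM). The median was 0.21 after quantile normalization, where Kdelr1 turned to -0.055, Mcfd2 was at 0.030, Surf4 at 0.11, Sec22b at 0.20, Kdelr2 at 0.22, Lman2 at 0.29, Lman1 and Bet1 at 0.32 each and Stx5a at 0.39. Lman1 (ERGIC-53), the lectin that carries coagulation factors V and VIII, was at 42.2, 45.7 and 43.9 FPKM in control livers and 66.8, 52.0 and 65.1 FPKM in lipophagy livers. Every lipophagy liver lay above the controls, and the log2 change was 0.46 (SE 0.11, limma adjusted p = 0.134). Mcfd2, its partner in that complex, was at 81.1 ± 6.05 and 91.6 ± 4.26 FPKM (SD, n = 3), without overlap but with an unadjusted p above 0.05. Lman2 (VIP36), a related lectin, was at 36.0, 40.2 and 39.7 FPKM in control livers and 57.0, 48.7 and 50.9 FPKM in lipophagy livers. Its lowest lipophagy liver was above its highest control liver, with a log2 change of 0.42 (SE 0.089, limma adjusted p = 0.131). Surf4, a receptor for soluble cargo including lipoproteins, was at 72.6, 84.1 and 82.4 FPKM in control livers and 103, 88.8 and 92.6 FPKM in lipophagy livers (log2 change 0.25, limma adjusted p = 0.221).

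The 3 SNAREs among the members, Stx5a, Bet1 and Sec22b, had higher levels without overlap. Of other SNAREs, named after their values were seen, Gosr2, Bet1l and Ykt6 were also higher without overlap. Gosr1, Vti1a, Stx18, Use1 and Bnip1 had overlapping groups. Of all tested genes 15.4% were higher without overlap, and of those of at least 10 FPKM 30% were. Stx5a, the syntaxin that fuses ER-derived carriers with the Golgi, was at 26.3, 32.9 and 31.2 FPKM in control livers and 49.0, 40.0 and 42.4 FPKM in lipophagy livers, with a log2 change of 0.53 (SE 0.11, limma adjusted p = 0.131). Its partner Bet1 was at 33.0, 42.1 and 35.8 FPKM in control livers and 57.6, 47.9 and 48.8 FPKM in lipophagy livers (log2 change 0.47, SE 0.11, limma adjusted p = 0.135). Control liver 1 was the lowest and lipophagy liver 1 the highest in both. Sec22b, the third SNARE among the members, was at 20.7, 22.04 and 21.6 FPKM in control livers and 31.5, 22.4 and 27.5 FPKM in lipophagy livers (log2 change 0.31, limma adjusted p = 0.222), where lipophagy liver 2 lay just above the controls.

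The 3 KDEL receptors, which return ER-resident proteins from the Golgi, differed among themselves. Kdelr2 was at 42.1, 49.4 and 49.2 FPKM in control livers and 66.7, 53.6 and 60.6 FPKM in lipophagy livers (log2 change 0.35, SE 0.11, limma adjusted p = 0.169). Kdelr1 was at 62.9 ± 4.02 and 67.3 ± 2.69 FPKM (SD, n = 3) with overlap. Kdelr3, far lower, was at 0.777, 1.11 and 1.52 FPKM in control livers and 0.539, 0.698 and 0.483 FPKM in lipophagy livers. Its lipophagy livers all lay below its controls, with a log2 change of -0.43 (SE 0.13, limma adjusted p = 0.172).

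Kdelr3 rested on an estimated 15.0 to 65.0 fragments per liver, against at least 283 for any other member, so counting error is part of its spread. On the log2(FPKM + 1) scale its change is understated, and the ratio of its group means was 0.505. Of the markers of cells other than hepatocytes, all 6 of bile duct and 9 of 10 of stellate cells had lower means, as Kdelr3 did. The other lists did not move as one with it. All 6 bile duct markers searched were lower in lipophagy livers (median -0.50) but with overlapping livers, at a summed 138 to 248 FPKM in control and 92.5 to 198 FPKM in lipophagy livers. Among them Krt19, a keratin of bile ducts, was at 1.91, 4.16 and 4.05 FPKM in control livers and 1.43, 3.36 and 1.37 FPKM in lipophagy livers. Within the groups, Krt19 and Kdelr3 were both lowest in control liver 1 and highest in lipophagy liver 2. Among controls, however, Krt19 was highest in liver 2 and Kdelr3 in liver 3. Of 10 stellate cell markers 9 were lower, where 5234 of 11493 tested genes were, and 6 were lower without overlap, against 10.8% of tested genes. Those 6 were Col1a1, Col1a2, Col3a1, Acta2, Pdgfrb and Timp1. The groups overlapped in Dcn, Reln and Des, and Lrat was higher with overlap (log2 change 0.25). The 10 summed to 171 to 185 FPKM in control and 136 to 164 FPKM in lipophagy livers. Of the other lists, 8 of 9 markers of sinusoidal endothelium were higher (median 0.11), 4 of 10 of macrophages were higher and 6 lower, and 2 of the 4 lymphocyte markers tested were higher and 2 lower. No marker of these lists was at 0 in all livers. The part of these cells in the level of Kdelr3 was not tested.

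Other genes of the same route were counted from a list of 80 cofactors, tethers and SNAREs, of which 76 were tested. Of these, 62 had a higher mean and 14 a lower one, and the median log2 change was 0.15. With an unadjusted p below 0.05, 17 (22.4%) were higher and 0 lower, against 11.5% and 7.97% of all tested genes. The 17 was 11 without lipophagy liver 1, where the share of all tested genes was 6.95%. In 25 of the 76 genes (32.9%) the lipophagy livers all lay above the controls, against 15.4% of all tested genes. Of the 41 genes on the list with a mean of at least 10 FPKM, 11 (26.8%) were higher with an unadjusted p below 0.05 and 17 (41.5%) had no overlap, against 23.6% and 30% of all tested genes at that level, so the first share lies near the background. By group, 13 of 42 tethers and SNAREs, 2 of 13 COPI cofactors, 2 of 9 ERGIC and cargo receptor genes and 0 of 12 COPII cofactors were higher with an unadjusted p below 0.05. Arfgap3, a GTPase-activating protein for Arf1, was at 3.83, 4.79 and 4.22 FPKM in control livers and 8.35, 6.24 and 8.25 FPKM in lipophagy livers. Its lowest lipophagy liver was above its highest control liver, with a log2 change of 0.70 (SE 0.12, limma adjusted p = 0.103). Rint1, a tether for carriers that return to the ER, was at 4.77 ± 0.5001 and 7.41 ± 1.07 FPKM (SD, n = 3), and Scfd1 (Sly1), the partner of Stx5a, at 21.3 ± 0.946 and 29.98 ± 4.10 FPKM (SD, n = 3), both without overlap.

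Of 15 regulators and ER chaperones on a list, 12 had a higher mean in lipophagy livers, with a median log2 change of 0.31. With an unadjusted p below 0.05, 6 (40.0%) were higher and 0 lower, against 11.5% and 7.97% of all tested genes (23.6% higher among those of at least 10 FPKM). After quantile normalization 5 were higher and 1 lower, against 6.48% and 7.82% of all tested genes. As deposited, the 3 with the largest log2 change among the 6 higher ones were Creld2 (1.17), Dnajb9 (1.10) and Hspa5 (0.87). They are ER proteins induced when unfolded proteins accumulate, with adjusted p of 0.165, 0.0802 and 0.144 (limma). Hspa5 (BiP), the main ER chaperone and a ligand of the KDEL receptors, was at 215, 349 and 322 FPKM in control livers and 647, 399 and 575 FPKM in lipophagy livers. Its lowest liver was control liver 1 and its highest lipophagy liver 1, as in most of the transport genes. Of the transcription factors of this response, named after their values were seen, Atf6 was at 6.18 ± 0.172 and 7.33 ± 0.744 FPKM (SD, n = 3) without overlap, and Xbp1, whose spliced form is the active one and which a gene-level value does not resolve, at 121 ± 11.4 and 109 ± 4.79 FPKM with overlap.

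The cargo of the route did not move as one group. Of 11 secreted proteins on the list, 6 had a higher and 5 a lower mean, and the median log2 change was 0.0085. Alb, the most abundant, was at 38614, 35470 and 39159 FPKM in control livers and 64089, 45009 and 49118 FPKM in lipophagy livers, without overlap (log2 change 0.47, SE 0.17, limma adjusted p = 0.204). F5, a client of the Lman1 and Mcfd2 complex, was at 50.8 ± 4.54 and 48.7 ± 6.50 FPKM (SD, n = 3) with overlap. Apob, the protein of very low density lipoproteins, was at 264 ± 12.97 and 259 ± 19.5 FPKM (SD, n = 3), also with overlap.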

How the data were processed

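Gene expression was measured by paired-end sequencing of poly(A) libraries (TruSeq stranded mRNA) from 3 control and 3 lipophagy-induced livers. The authors deposited FPKM values for 24346 gene symbols, scaled by them to transcript length and mapped fragments. The submitters' processing notes name TopHat2 2.0.13, Bowtie2 2.2.3, SAMtools 0.1.19, Cufflinks 2.2.1 and the build mm10. The annotation used is not given in the sources used here, and the instrument is a HiSeq per the labels and a NovaSeq per the methods. No count model was fitted, since FPKM are scaled values.

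Groups came from the sample titles. Genes averaging 0.5 FPKM or more across the 6 livers were tested as log2(FPKM + 1) with limma 3.58.1 in R 4.3.3 (intensity trend, no covariates, two-sided, Benjamini-Hochberg adjustment over 11493 genes, threshold 0.05), a scale that understates changes of low genes. Paralog shares were compared by an exact permutation test (scipy 1.17.1, smallest p 0.1). The labels number the livers without saying that they came from separate mice, so p-values measure the spread between these samples, which may be technical. Depth was estimated from steps between low values in genes with 1 annotated transcript (GENCODE M21, length less 150 bases), and between 75.0% and 83.5% of the 200 to 315 low values per liver lay within 0.15 of a whole fragment. The procedure was run on simulated data with independent noise and planted log2 changes larger than those of any member, so changes of the members' size were not covered.

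Members and lists were chosen with earlier results of these data known. All 42 members were named, in full where the unadjusted p was below 0.05 and the groups did not overlap, and of the other lists at most 3 genes in each direction by the same measure, and any gene named beyond these was chosen after its values were seen. Sequences came from RefSeq (GRCm38). Alternatives were other pseudocounts (0.1, 0.5), filters (none, 0.1, 1 FPKM) and scalings, no trend, the replicate number as a block, and each liver left out.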

Additional observations from a re-analysis of the deposited data

How the results depend on the processing

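In 15 alternative settings, 0 of the 42 members had an adjusted p below 0.05 (limma), the lowest being 0.0533, and 31 members kept their direction in every setting that tested them. Quantile normalization gave 11 members higher with an unadjusted p below 0.05, and medians of 0.0069 for the COPII coat, 0.11 for p24, 0.043 for the COPI coat and 0.21 for receptors and SNAREs, and it turned Sec13 (-0.025), Sec24c (-0.047), Tmed4 (-0.034), Tmed5 (-0.085), Tmed10 (-0.0051), Copz1 (-0.011) and Kdelr1 (-0.055). The difference in the Sec24b share was -1.63 percentage points with it. The cause was not tested. Without a filter on low values 1 gene was called across all genes, against 3, and the median of all genes was -0.0044. With a filter at 1 FPKM Kdelr3 was not tested, so 1 member was lower with an unadjusted p below 0.05. Kdelr3 is also the member that depth limits most.

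Leaving out 1 liver gave 13 to 22 members higher and 1 to 2 lower at an unadjusted p below 0.05, the 13 when lipophagy liver 1 was left out, against 6.95% to 14% higher and 5.2% to 8.2% lower over all tested genes in the same settings. It gave 2 to 11 genes called across all genes, with 7 when control liver 2, 5 when lipophagy liver 2 and 11 when lipophagy liver 3 was left out. Genes near no change turned, with log2 changes from -0.11 to 0.053 for Sec23a, -0.15 to 0.062 for Sec24a, -0.12 to 0.036 for Sec16a, -0.018 to 0.079 for Sec24c, -0.024 to 0.15 for Copg2 and -0.11 to 0.12 for Tmed5.

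Control and lipophagy livers share the numbers 1 to 3. The deviations of same-numbered livers from their group means correlated at 0.25, 0.23 and -0.057 across genes. Control livers 1 and 2 correlated best with the lipophagy liver of their own number, and control liver 3 with lipophagy liver 2. Whether livers of the same number shared a batch cannot be told from these correlations. With the replicate block, 43 genes were called across all genes, 0 of them members, and 18 members were higher and 1 lower with an unadjusted p below 0.05, against 9.86% and 7.93% of all tested genes.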
